A study of Sus scrofa with 20 samples.

Results

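Solute carriers are the membrane proteins that move amino acids, sugars, nucleosides, organic acids and ions across the plasma membrane and the membranes of organelles, and their genes carry symbols that begin with SLC and a family number. The genes examined here are the solute carriers other than those of phosphate, zinc, iron, calcium and glucose transport that were set apart by symbol (the families SLC20, SLC30 and SLC39 and 10 single genes). Of 13755 named genes on the array, 251 met this rule, out of 286 solute carrier symbols in all. For each gene the probe set with the highest mean over the 20 arrays was taken. A probe set was tested where it lay above the median of its array on at least 16 of the 20 arrays, which 159 of the 251 genes and 9367 of the 13755 named genes did. The rule went by symbol alone, so that it also left in SLC34A3, a sodium-phosphate cotransporter, the SLC41 magnesium carriers, the SLC31 copper carriers, and 5 genes named after a carrier but coding for no transporter. It likewise left in the mitochondrial iron importer SLC25A28, and the SLC24 calcium exchangers and SLC2 sugar carriers other than the single genes set apart. Carriers of iron, calcium and sugars are therefore not absent from the members.

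Peripheral blood mononuclear cells (PBMC), the lymphocytes and monocytes collected from blood on a density gradient, were taken at an age of 63 days from weaned German Landrace piglets. The piglets had received a diet low (L), medium (M, the recommended supply) or high (H) in calcium and phosphorus since weaning, and each animal gave 1 array. The L group held 6 animals (3 females, 3 males), the M group 7 (4 females, 3 males) and the H group 7 (3 females, 4 males), and the males had been castrated according to the methods. The piglets came from a small number of litters, and litter is not among the labels, so that littermates could not be accounted for.

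Carriers set what a blood cell can take up and what its organelles can exchange. In lymphocytes the amino acid carriers SLC7A5 with SLC3A2, SLC1A5 and SLC38A1 are known to be induced on activation, when the cells take up leucine and glutamine. Lysosomes and endosomes of monocytes hold carriers for peptides, nucleosides and metals, and the SLC25 family links the matrix of the mitochondrion to the cytosol.

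Values are on the log2 scale after RMA (robust multichip average) normalisation, where a difference of 1 is a 2-fold difference, and no level of one probe set is set against that of another. The array medians lay between 4.29 and 4.46, and the correlation between any 2 arrays between 0.958 and 0.985. Markers of several blood cell types lay mostly on one side of 0 between H and L animals. All 9 tested monocyte markers were above 0 in H minus L (median 0.65), as were 11 of 12 neutrophil markers (median 0.46), although a density gradient should leave few neutrophils. All 11 T cell markers were below 0 (median −0.36), as were 7 of 8 B cell markers (median −0.25) and all 8 erythroid markers (median −0.31). Of the NK cell markers 2 were above and 5 below 0 (median −0.11), and of the platelet markers 4 above and 1 below (median 0.19). At an unadjusted p under 0.01 were 2 neutrophil markers, 1 monocyte marker and 1 T cell marker, beside 2.19% of all genes tested. No marker passed the full criterion given below. In a bulk sample, fewer cells of a type and less RNA per cell cannot be told apart.

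H and L animals differed at an unadjusted p under 0.01 in 5 of the 159 solute carriers tested. The peptide carrier SLC15A2 and the nucleotide carrier SLC35B1 were lower in H animals, and the taurine carrier SLC6A6, the nucleoside carrier SLC29A3 and the organic ion carrier SLC22A15 were higher. None of them passed the full criterion of p under 0.01 with a Storey q (the estimated share of false calls) under 0.21, and their q lay between 0.426 and 0.441. Over all genes tested 2.19% were at p under 0.01 in this comparison, against 3.14% of the solute carriers. The 3 higher members were 1.89% of those tested, beside 1.41% of all genes, and the 2 lower members 1.26%, beside 0.779%. The full criterion was met by 0.0214% of all genes. At a p under 0.05 stood 10 members, which is 6.29%, beside 9.16% of all genes. The H and L ranges overlapped in all 159 members, whereas they did not in 0.256% of all genes.

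SLC15A2, which codes for PEPT2, a proton-coupled carrier of dipeptides and tripeptides known from kidney and brain, had the smallest p of the members (probe set SNOWBALL_015953_st). Its lowest, median and highest log2 levels were 7.91, 8.58 and 8.76 in L animals, 7.39, 7.83 and 8.69 in M animals, and 7.22, 7.75 and 8.17 in H animals. A single L animal lay within the range of the H animals, and the other L animals lay at 8.45 or higher, above every H animal. The H minus L difference was −0.74 (SE 0.18, q = 0.426, 0.60-fold, 95% interval −1.11 to −0.37). An exact permutation test of H against L over 1716 splits, two-sided, gave p = 0.0035. Like the other exact tests below, it was run on a gene picked for this same difference on these arrays, so that its p describes the gene and adds no support. The difference was about as large in males (−0.73, SE 0.25) as in females (−0.78, SE 0.27), and the difference between the sexes was 0.05 (SE 0.37). A second probe set of the gene that passed the filter gave −0.78 (SE 0.21, q = 0.426), and the one that did not pass gave −0.13 (SE 0.18).

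**Figure D1:**
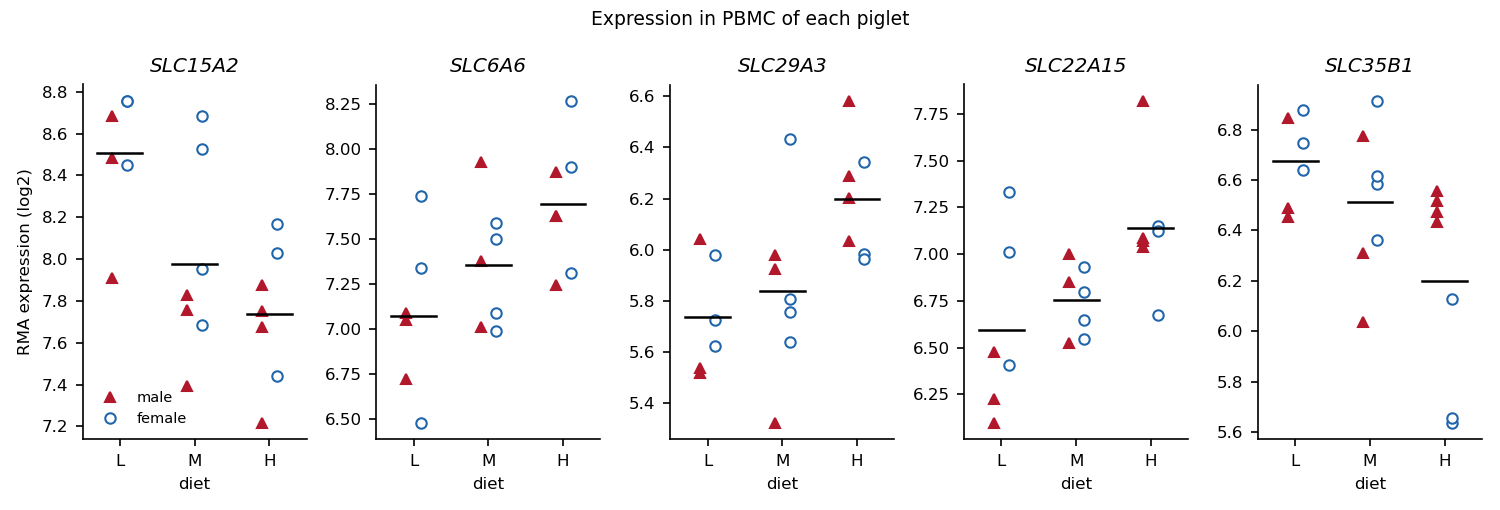
RMA expression (log2) of the 5 solute carriers at p under 0.01 in H minus L, in each piglet on the L, M and H diets, with triangles for males, circles for females and lines for the diet means. SLC15A2 lies lower in H than in L animals apart from 1 L male at 7.91, and the H females of SLC35B1 lie below every other animal but 1 M male.

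SLC6A6 codes for the taurine transporter TauT; taurine is the amino sulfonic acid that leukocytes accumulate. Its lowest, median and highest levels were 6.48, 7.07 and 7.74 in L animals, 6.99, 7.38 and 7.93 in M animals, and 7.24, 7.63 and 8.27 in H animals (probe set SNOWBALL_015720_st). The ranges overlapped from 7.24 to 7.74. H minus L was 0.63 (SE 0.20, q = 0.426, 1.55-fold, 95% interval 0.21 to 1.05), with an exact permutation p of 0.0186. It was 0.64 in males and 0.64 in females. All 4 probe sets of SLC6A6 passed the filter and all were above 0, at 0.63, 0.25, 0.53 and 0.44.

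SLC29A3 codes for ENT3, the equilibrative nucleoside transporter of lysosomes, whose loss is known to cause histiocytosis in human. Its lowest, median and highest levels were 5.52, 5.68 and 6.04 in L animals, 5.32, 5.81 and 6.43 in M animals, and 5.97, 6.20 and 6.58 in H animals (probe set SNOWBALL_017035_s_st). The H animals thus started where the highest L animals ended. H minus L was 0.46 (SE 0.15, q = 0.426, 1.38-fold, 95% interval 0.14 to 0.78), and the exact permutation p was 0.00874. SLC29A3 also had the smallest p of the members in H minus M, at 0.36 (SE 0.15, q = 0.645).

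SLC22A15 belongs to the organic ion family and carries zwitterions such as ergothioneine in human. Its lowest, median and highest levels were 6.10, 6.44 and 7.33 in L animals, 6.52, 6.79 and 7.00 in M animals, and 6.68, 7.09 and 7.82 in H animals (probe set SNOWBALL_006184_st). H minus L was 0.55 (SE 0.19, q = 0.434, 1.47-fold, 95% interval 0.16 to 0.94), with an exact permutation p of 0.0355. The 2 highest L animals were females and lay within the H range. The gene's other probe sets did not pass the filter, and gave 0.31 (SE 0.15) and 0.24 (SE 0.18).

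SLC35B1 is placed with the nucleotide sugar carriers and is known as the exchanger of ATP and ADP in the endoplasmic reticulum, where ATP serves the folding of secreted proteins. Its lowest, median and highest levels were 6.46, 6.69 and 6.88 in L animals, 6.04, 6.58 and 6.92 in M animals, and 5.64, 6.43 and 6.56 in H animals (probe set SNOWBALL_000144_st). H minus L was −0.48 (SE 0.17, q = 0.441, 0.72-fold, 95% interval −0.84 to −0.13), with an exact permutation p of 0.0192. The low H values were those of the females, which are given below with the sexes. The exact tests were run for these 5 genes only, use neither sex nor litter, and can give no p under 0.000583.

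**Figure D2:**
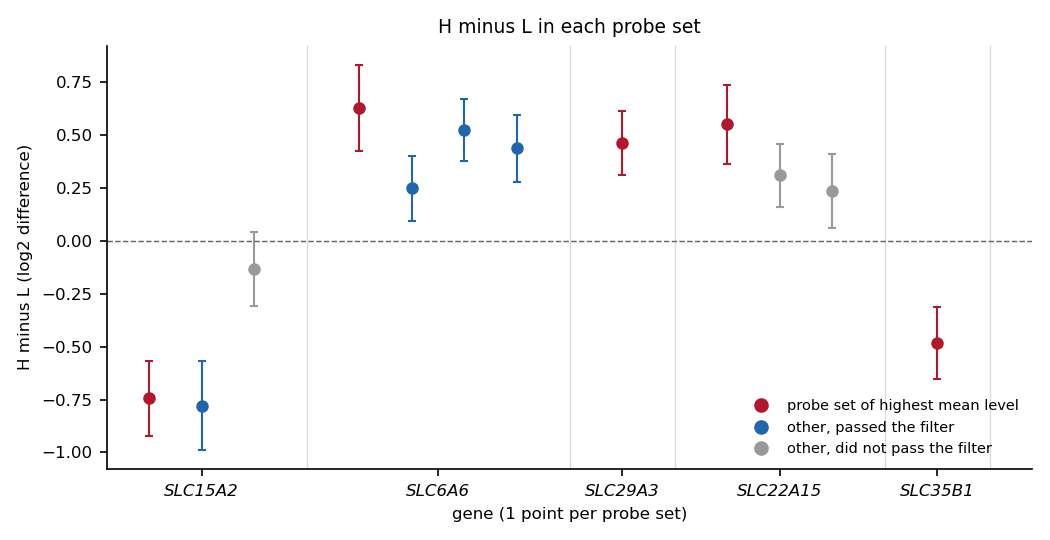
H minus L (log2 difference, bars ± 1 SE, from a fit of all probe sets without the filter) in every probe set of the 5 genes, ordered within a gene by mean level, with colours for the probe set used and for those that did or did not pass the filter. Every probe set of SLC6A6 and SLC22A15 lies above 0 and every one of SLC15A2 below 0, although the SLC15A2 probe set at −0.13, which did not pass the filter, lies within 1 SE of 0.

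The members that came next after the threshold were SLC22A17, SLC2A6 and SLC31A2. SLC22A17, known as a receptor of lipocalin 2, was at −0.39 in H minus L (SE 0.17). Its other probe set that passed the filter was at −0.41 (SE 0.14) and at p under 0.01 (q = 0.434). With the mean of its probe sets (−0.40), or without H replicate 4, SLC22A17 would be counted among the members at p under 0.01. SLC2A6, the lysosomal hexose carrier GLUT6, was at 0.25 (SE 0.11, q = 0.504), and SLC31A2, a copper carrier of endosomes and lysosomes, at 0.32 (SE 0.15, q = 0.533). The probe set of SLC31A2 had a mean of 4.73, near the array medians of 4.29 to 4.46. SLC25A35 at −0.36 and SLC35D3 at 0.26 were the other members at p under 0.05.

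The monocyte and neutrophil markers lay for the most part higher in H than in L animals. Their relation to these members from animal to animal was not tested. The mean level of the monocyte markers had a lowest, median and highest value of 8.25, 9.06 and 9.50 in H animals, against 7.43, 8.31 and 8.77 in L animals, and that of the neutrophil markers 7.24, 8.18 and 8.88 in H animals, against 6.96, 7.37 and 8.36 in L animals. With the mean levels of both lists as covariates, SLC15A2 stood at −0.63 and was the only member at p under 0.01, while 0.609% of all genes were. Under the same covariates SLC29A3 stood at 0.44 and SLC35B1 at −0.41, against 0.46 and −0.48 without them. SLC6A6 stood at 0.24 and SLC22A15 at 0.29, against 0.63 and 0.55 without the covariates, and no member had a q under 0.21. Other members described below also moved with the covariates: SLC7A7 stood at −0.13 and SLC31A1 at −0.16, against 0.26 and 0.24 without them. SLC9A9 stood at 0.07, against −0.24, and SLC6A9 and SLC43A3 at 0.03 each, against 0.33 and 0.26. SLC16A7 stood at 0.19, SLC31A2 at 0.13 and SLC27A4 at 0.07, against 0.54, 0.32 and 0.20, and SLC22A17, SLC37A4 and SLC7A6 at −0.25, −0.16 and −0.12, against −0.39, −0.28 and −0.22. The scaffold gene SLC9A3R2 stood at 0.32, against 0.20 (0.11 with the mean of its probe sets). The part of the T cell and B cell markers in these differences was not tested.

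Across all 159 members H minus L had a median of −0.02 and ran from −0.36 to 0.32 between the 5th and 95th percentiles, with 77 members above and 82 below 0. Of the 56 members with 2 or more probe sets that passed the filter, all these probe sets lay on one side of 0 in 35. All genes tested had a median of −0.02 and percentiles of −0.35 and 0.37. The median SE of a member was 0.15, and the SD between animals of a diet had a median of 0.27 in members and 0.26 in all genes. The carriers that varied most between animals of a diet were SLC6A4 and SLC25A21, which are named for this spread after it was seen. SLC6A4, the serotonin carrier that platelets use to load serotonin, had an SD of 1.12. The mean level of the platelet markers ran from 6.29 to 7.93 in H, from 4.85 to 8.13 in M and from 4.85 to 8.01 in L animals. Whether SLC6A4 varied with these markers from animal to animal was not tested. SLC25A21, the mitochondrial oxodicarboxylate carrier, had an SD of 0.97.

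**Figure D3:**
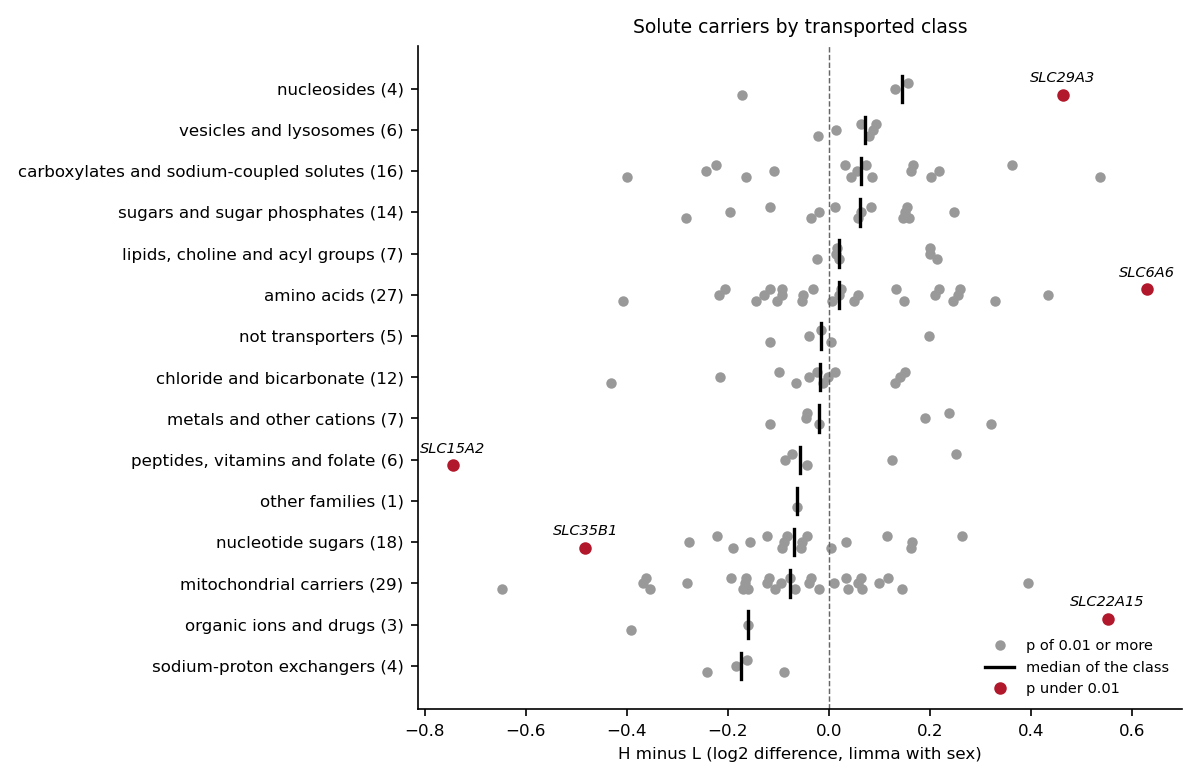
H minus L (log2 difference from limma with sex as a covariate) of each of the 159 tested members, by transported class with the number tested in parentheses; the black line is the class median and red points mark p under 0.01. The class medians lie between −0.17 and 0.14, and the 5 red points lie in 5 classes.

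Among the amino acid carriers 27 of 48 were tested, 15 above and 12 below 0 in H minus L, with a median of 0.02 and SLC6A6 the only one at p under 0.01. The carriers known for activated lymphocytes stayed near 0. SLC7A5 and SLC3A2, the light and heavy chains of the leucine exchanger LAT1, were at −0.12 (SE 0.15) and −0.03 (SE 0.15). The glutamine carriers SLC1A5 (ASCT2) and SLC38A1 (SNAT1) were at 0.05 (SE 0.12) and −0.13 (SE 0.18), and the arginine carrier SLC7A1 at −0.05 (SE 0.13). For SLC7A5 the 95% interval of the difference ran from −0.42 to 0.18, and for SLC1A5 from −0.20 to 0.30. The cystine exchanger SLC7A11 was at −0.10 (SE 0.24).

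SLC7A7, the cationic amino acid exchanger known for monocytes and macrophages, was at 0.26 (SE 0.17, q = 0.679). Its second probe set that passed the filter was at 0.60 (SE 0.21, q = 0.434) and at p under 0.01, and the mean of both at 0.43. Its close relative SLC7A6 was at −0.22 (SE 0.14, q = 0.659). SLC6A9, the glycine carrier GLYT1, had a lowest, median and highest level of 7.91, 8.21 and 8.47 in H animals, against 7.49, 7.84 and 8.41 in L animals, and gave 0.33 (SE 0.16, q = 0.543). SLC43A3, a carrier of purine nucleobases placed in this class by its family, was at 0.26 in H minus L (SE 0.15) and at 0.33 in H minus M (SE 0.14), and both its probe sets lay above 0.

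Amino acids taken up by these carriers are sensed by the mTORC1 pathway on the lysosome. Of 20 tested genes of that pathway, 7 were above and 13 below 0 in H minus L, with a median of −0.08, and 1 was at p under 0.01, beside 2.19% of all genes. This was RRAGB, a Rag GTPase that brings mTORC1 to the lysosome, at −0.40 (SE 0.13, q = 0.426), and its relative RRAGA followed at −0.42 (SE 0.16, q = 0.455). SLC38A9, the lysosomal carrier that reports arginine to this complex and is named here for that role, was at 0.13 (SE 0.12). Its value depends on the probe set: others that passed the filter were at −0.01 (SE 0.13) and 0.53 (SE 0.27). Of 12 tested partners of carriers (chaperones, regulators and transcription factors) 5 were above and 7 below 0 and none was at p under 0.01.

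The carboxylate and sodium-coupled carriers had 16 of 29 tested, 11 above and 5 below 0, with a median of 0.06. Among the monocarboxylate carriers SLC16A1 (MCT1), which moves lactate and pyruvate, was at −0.16 (SE 0.16), and SLC16A3 (MCT4), the lactate exporter of glycolytic cells, was at 0.17 (SE 0.12). SLC16A7 (MCT2) averaged 5.21 ± 0.62 in H animals, against 4.68 ± 0.24 in L animals (SD), and its highest H animal stood at 6.24. The L mean lay near the array medians of 4.29 to 4.46. SLC16A7 gave 0.54 in H minus L (SE 0.27, q = 0.559) and 0.61 in H minus M (SE 0.26, q = 0.661).

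The mitochondrial carriers of the SLC25 family were the class with most members tested, 29 of 33, and 10 were above and 19 below 0 in H minus L, with a median of −0.08. The smallest p was that of SLC25A35, an orphan carrier, whose lowest, median and highest levels were 5.79, 6.32 and 6.79 in H animals, against 6.24, 6.63 and 6.77 in L animals, a difference of −0.36 (SE 0.17, q = 0.535). The adenine nucleotide exchangers SLC25A5 and SLC25A6 were at −0.35 (SE 0.24) and −0.12 (SE 0.12). The citrate carrier SLC25A1, the oxoglutarate carrier SLC25A11 and the ATP-Mg carrier SLC25A24 were at −0.11, −0.02 and 0.01, and the pyrimidine nucleotide carrier SLC25A36 at 0.04. None of the 29 was at p under 0.01.

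The nucleotide sugar carriers of the SLC35 family, which feed the glycosylation of proteins in the Golgi and the endoplasmic reticulum, had 18 of 20 tested, 6 above and 12 below 0, with a median of −0.07. Apart from SLC35B1 none was at p under 0.01, and SLC35A5 was at 0.03 (SE 0.14). Of the nucleoside carriers 4 of 6 were tested, 3 above and 1 below 0. Next to SLC29A3 stood SLC29A1 (ENT1), the main nucleoside carrier of the plasma membrane, at −0.17 (SE 0.17), and its 95% interval ran from −0.53 to 0.19.

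In the peptide, vitamin and folate class 6 of 9 were tested, and SLC15A2 was the only one at p under 0.01. The reduced folate carrier SLC19A1 was at −0.09 (SE 0.19). The class of sugars and sugar phosphates had 14 of 18 tested, 9 above and 5 below 0 with a median of 0.06, and included SLC37A4, the glucose 6-phosphate carrier of the endoplasmic reticulum known for neutropenia when lost in human, at −0.28 (SE 0.22), and SLC37A3 at 0.01 (SE 0.14). The direction of SLC37A4 depends on the probe set, since its other one that passed the filter was at 0.20 (SE 0.15) and one that did not at 0.55 (SE 0.23). Other named members also had probe sets that passed the filter on both sides of 0. Among them were SLC19A1 (−0.09 and 0.07), SLC37A3 (0.01, −0.10 and −0.04), SLC12A7 (−0.06 and 0.09) and SLC29A1 (−0.17, −0.25, 0.15 and −0.20).

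The 4 tested sodium-proton exchangers were all below 0, between −0.24 and −0.09, with the endosomal exchanger SLC9A9 at −0.24 (SE 0.16, q = 0.674), and none at p under 0.05. This direction depends on the probe set for SLC9A8, the member at −0.09. Its other probe sets that passed the filter were at 0.01 (SE 0.14) and 0.16 (SE 0.10). In males 2 of the 4 exchangers were above and 2 below 0, and in females all 4 were below. The chloride and bicarbonate class had 12 of 24 tested, 4 above and 8 below 0 with a median of −0.02. Its bicarbonate cotransporter SLC4A7 and potassium-chloride cotransporter SLC12A7 were at −0.01 (SE 0.12) and −0.06 (SE 0.15). The smallest p of the class was that of SLC12A8, at −0.21 (SE 0.13, q = 0.644). The largest difference was that of SLC4A4, named after it was seen, at −0.43 (SE 0.32). Its other probe sets that passed the filter were at −0.41 (SE 0.17) and −0.55 (SE 0.35). In the class of metals and other cations 7 of 12 were tested, 3 above and 4 below 0, and the copper importer SLC31A1 was at 0.24 (SE 0.17). The lipid, choline and acyl class had 7 of 14 tested, 6 above and 1 below 0, with the fatty acid carrier SLC27A4 at 0.20 (SE 0.12, q = 0.624) and the choline carrier SLC44A1 at 0.22 (SE 0.19).

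Vesicle and lysosome carriers had 6 of 13 tested, 5 above and 1 below 0, and the ATP carrier SLC17A9 and the sialic acid carrier SLC17A5 were at 0.09 and 0.06. SLC34A3, the single tested phosphate cotransporter, was at −0.06 (SE 0.12, 95% interval −0.32 to 0.20). The 5 genes that code for no transporter included the scaffold proteins SLC9A3R1 and SLC9A3R2, at −0.12 (SE 0.16) and 0.20 (SE 0.18). Proteins that carry solutes but bear another kind of symbol were looked at beside the members: 18 were tested, 8 above and 10 below 0 with a median of −0.02. At p under 0.01, beside 2.19% of all genes, were 2 of them: NPC1, which moves cholesterol out of lysosomes, at 0.45 (SE 0.14, q = 0.426), and FLVCR2, of the feline leukemia virus receptor family, at 0.65 (SE 0.22, q = 0.434).

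Of the 92 members that were not tested, 55 lay above the median on no array and 37 on at least 1. Those on no array included SLC10A1 and SLC10A2, the bile acid carriers of liver and ileum, and SLC12A1, the sodium-potassium-chloride carrier of the kidney. They also included SLC38A2 (SNAT2), SLC12A2 and SLC22A5 (the carnitine carrier), which many cell types use; what their probe sets detect was not tested. Of 33 carriers listed for blood cells from textbook knowledge, 28 were among the members and 24 were tested. In a fit without the filter the same 5 genes were at p under 0.01 in H minus L and none of these 92 was.

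M animals were set against L animals to see whether the recommended supply differed from the low one, and against H animals for the high supply. In M minus L 1 member, SLC15A2, was at p under 0.01, which is 0.629%, beside 0.246% of all genes. It was at −0.56 (SE 0.18), with 4 of 7 M animals below every L animal. The next were SLC25A26, the mitochondrial carrier of S-adenosylmethionine, at −0.35 (SE 0.15) and SLC12A8 of the cation-chloride family at −0.28 (SE 0.13). The probe set of SLC12A8 had a mean of 4.70, near the array medians of 4.29 to 4.46. In H minus M none of the 159 was at p under 0.01 by limma, whereas 1.68% of all genes were; 5 members were at p under 0.05, which is 3.14%, beside 7.18% of all genes. SLC15A2 was at −0.19 in H minus M (SE 0.17, q = 0.894). The 3 comparisons share animals and are given side by side.

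Males were set against females across the diets. SLC32A1, the vesicular carrier of GABA and glycine known from inhibitory neurons, was the only member at p under 0.01 (0.629%, beside 0.267% of all genes). Its lowest, median and highest levels were 3.64, 4.59 and 5.32 in males and 4.33, 5.32 and 5.64 in females, so that the ranges overlapped. A further probe set of SLC32A1 (mean 3.72) did not pass the filter. The one used had a mean of 4.87, near the array medians of 4.29 to 4.46, and its lowest male value lay below them. Male minus female was −0.71 (SE 0.18), and it did not meet the full criterion. SLC15A2 was also lower in males, at 7.22, 7.79 and 8.68 against 7.44, 8.31 and 8.76 in females, a difference of −0.37 (SE 0.14). The glutamine carrier SLC38A5 followed at −0.56 (SE 0.25).

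The H minus L difference itself differed between the sexes at p under 0.01 in 2 members, SLC35B1 and SLC41A2 (1.26%, beside 0.865% of all genes), neither with a q under 0.21. In females SLC35B1 lay between 5.64 and 6.13 in H animals, against 6.64 to 6.88 in L animals. In males it lay between 6.43 and 6.56 in H animals, against 6.46 to 6.85 in L animals. H minus L was −0.10 (SE 0.18) in males and −0.95 (SE 0.19, q = 0.340) in females, and the difference between them was 0.85 (SE 0.26, q = 0.804). SLC41A2, a magnesium carrier, gave 0.71 (SE 0.27) in males and −0.42 (SE 0.29) in females, a difference of 1.13 (SE 0.39, q = 0.804).

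SLC22A15 came next by this test, at 0.92 (SE 0.33, q = 0.804). Its level lay between 7.04 and 7.82 in H males, against 6.10 to 6.48 in L males, and between 6.68 and 7.15 in H females, against 6.41 to 7.33 in L females. H minus L was 0.99 in males (SE 0.22, q = 0.209) and 0.06 in females (SE 0.24). With this q it was the only member that met the full criterion in any comparison, among males, where 0.203% of all genes did. It stood just inside the threshold: it met the criterion in 6 of the 20 fits that left out 1 animal, those without H replicate 4, L replicate 5, L replicate 10, M replicate 16, H replicate 18 or M replicate 19, and its q was 0.835 without L replicate 9. It also did not meet it in 6 of 8 other settings, and did so with the stricter filter and with array weights. With the monocyte and neutrophil scores as covariates it was at 0.73 in males with q = 0.961. Within a sex groups of 3 or 4 animals often do not overlap: this was so for 10 members in males (7.68% of all genes) and for 25 members in females (15.7% of all genes).

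**Figure D4:**
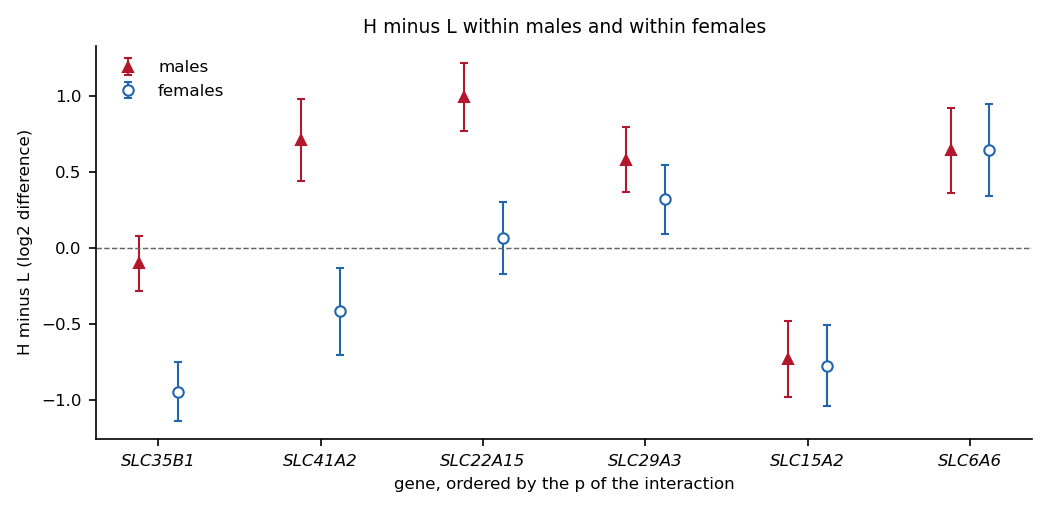
H minus L (log2 difference, bars ± 1 SE) within males (triangles) and within females (circles) for the 3 members with the smallest p of the interaction and the other members at p under 0.01 in H minus L. SLC35B1 is at −0.10 in males and −0.95 in females, whereas SLC15A2 and SLC6A6 have nearly the same value in both.

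The within-sex values were chosen after the data had been seen. In males 2 members were higher at p under 0.01, SLC22A15 and SLC25A28 (1.26%, beside 1.68% of all genes), and 1 was lower, SLC15A2 (0.629%, beside 0.214%). In females none was higher, beside 0.214% of all genes, and 3 were lower, SLC15A2, SLC35B1 and SLC35B2 (1.89%, beside 2.05%). SLC25A28 (mitoferrin 2), the mitochondrial iron importer, was at 0.81 (SE 0.28) in males and −0.06 (SE 0.29) in females. SLC35B2, the Golgi carrier of the sulfate donor PAPS, was at 0.15 (SE 0.21) in males and −0.66 (SE 0.23) in females. The 18 nucleotide sugar carriers had a median of 0.08 in males (11 above 0) and −0.21 in females (5 above 0), and the 29 mitochondrial carriers of −0.01 in males (13 above 0) and −0.13 in females (5 above 0). Over all genes the median was 0.01 in males and −0.05 in females. The T cell markers had a median of −0.26 in males and −0.61 in females and the NK cell markers of 0.30 in males and −0.74 in females, and their part in the values by sex was not tested.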

How the data were processed

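PBMC RNA of 20 piglets was hybridised to the snowball array, a 1-colour Affymetrix pig array of 47845 probe sets. The submitters' processing notes name GCOS 1.1.1 and RMA, and the deposited values are the log2 values that the authors made by RMA (background correction, quantile normalisation, probe summary). Quantile normalisation largely removes a shift shared by all transcripts. According to the methods 1 array was excluded in quality control. Precision is limited by how many arrays there are. The methods' presence filter was replaced by a rank filter (above the array median on 80% of arrays, 22127 probe sets), and 123 control probe sets were left out. No per-sample column was left unused.

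Diets were fitted together in limma 3.58.1 (R 4.3.3) with sex as a covariate, without litter, and the interaction in a fit of the 6 diet-by-sex cells; p-values are two-sided and q was computed over all kept probe sets. Figures were drawn with matplotlib 3.10.9. The steps were tested on simulated data. The members and lists were chosen with earlier results of these data known. Named genes are the members at p under 0.01 in H minus L, per class the smallest p and the highest mean level, the 3 smallest p of each other comparison, the 3 nearest past the threshold, textbook carriers, and up to 2 genes of other lists; others are named as chosen after their values were seen or for their role. Filters, the covariates, moderation, array weights, scaling, cell markers, the choice of probe sets, the adjustment and leaving out each animal were varied.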

Additional observations from a re-analysis of the deposited data

Results flagged for a closer look

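In 49 named members, 147 diet groups were looked at for a single animal that lay far from the others of its group, and 5 had one; chance gives about 1 in 20. SLC15A2 was lowest at 7.91 in L replicate 6 (the next L animal was at 8.45), SLC22A15 highest at 7.82 in H replicate 7 (next 7.15), and SLC2A6 highest at 6.53 in the same H animal (next 6.15). SLC25A35 was lowest at 5.92 in M replicate 19 (next 6.49), and SLC38A1 highest at 8.17 in L replicate 15 (next 7.69).

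The H minus L difference was tested between the sexes and differed at p under 0.01 in SLC35B1, by 0.85 (males less females, limma), and in SLC41A2, by 1.13, both with q = 0.804. Of the 20 fits that each left out 1 animal, 15 kept SLC35B1 at p under 0.01 and 7 kept SLC41A2 there.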

How the results depend on the processing

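SLC15A2 stayed at p under 0.01 in H minus L under all 11 other settings and without any 1 of the 20 animals, between −0.84 and −0.55. The count of 5 members at p under 0.01 (3.14%, beside 2.19% of all genes) was 3 under a stricter filter (4.29%, beside 2.95%). It was 2 without moderation (1.26%, beside 1.84%) and 2 with arrays centred on their medians (1.26%, beside 1.73%). With the neutrophil and monocyte scores it was 1 (0.629%, beside 0.609%), and by Benjamini-Hochberg 0. Leaving out each animal gave 1 to 5: 1 without H replicate 3, 2 without L replicate 10, L replicate 15 or H replicate 17, and 3 without L replicate 5, 9 or 13 or H replicate 7, 11 or 12. The share of all genes moved as well, from 1.14% without L replicate 9 to 3.23% without H replicate 18. Without H replicate 3 it was 1.32%, beside 0.629% of the members. The count by the full criterion (0) became 6 with array weights (3.77%), under which 4.68% of all genes passed it, and ran from 0 to 2 without single animals. It was 2 without L replicate 13 (1.26%, beside 1.48% of all genes). It was 1 (0.629%) without L replicate 10 or H replicate 18, beside 0.31% and 0.651% of all genes. For the other comparisons the share of all genes under each setting was not computed. The M minus L count of 1 was 2 without a filter, 0 without sex, 0 with the mean of all probe sets and 0 by Benjamini-Hochberg, and 0 to 2 without single animals. The H minus M count of 0 was 4 with array weights and 0 to 2 without single animals. The male minus female count of 1 was 0 under the stricter filter, with mean probe sets and by Benjamini-Hochberg, 2 with array weights, cyclic loess or marker scores, and 1 to 2 without single animals. The interaction count of 2 was 1 under the stricter filter, without moderation and under cyclic loess, 0 by Benjamini-Hochberg, and 0 to 3 without single animals. Exact tests at p under 0.01 numbered 1 to 2, and the median of the members lay between −0.03 and 0.02. No value of a named gene at p under 0.05 in the main fit changed direction. Of the values of single genes under the other settings, 19 lost p under 0.01, 7 gained it and 6 shifted by at least the SD between animals. The other 644 kept their side of the threshold or, away from it, shifted by less than that SD. This label allows a change of sign: SLC25A11 and SLC3A2 changed sign in 3 of 11 settings each. SLC7A7, SLC31A1 and SLC9A9 did so in 1 of 11 each, and the causes were not tested. No analysis by litter or by pairs was possible, because the labels give neither litter nor another link between animals of different diets.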
